A study of Mus musculus with 60 samples.

Results

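The genes described here break down phenylalanine and tyrosine. They were chosen by name and not by a cut on their values, though earlier results of these data were known. The 7 taken were Tat, Hpd, Hgd, Gstz1, Fah, Pcbd1 and Qdpr. All 7 were listed in both tables used, among 19355 genes in the table of cultured cells and 17473 genes in the table of liver, and each was kept by the filter on low values in both. Levels are FPKM (fragments per kilobase of transcript, scaled to the mapped fragments of a library), so they can be set side by side between genes.

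The study asked how IL6, a cytokine of the regenerating liver, lets mouse hepatocytes multiply in culture, and compared the cells with liver that regrew after partial hepatectomy (PHX). The labels give every sample as WT, strain C57BL/6, and the study's methods give C57BL/6J mice 8 to 10 weeks old. The cell table held 33 samples in 11 groups of 3. Hepatocytes were isolated by perfusion. IL6-iHPCs-D3 (P0) and IL6-iHPCs-D14 (P0) were the same kind of cells after 3 and 14 days in expansion medium with IL6, EGF, HGF and dexamethasone, at passage 0. Passaged IL6-iHPCs came from mouse-1 at passage 10 and at passage 35, from mouse-2 at passage 10 and from clone-1, a clonal line, at passage 20. The study's methods derive clones from single hepatocytes of mice that carried Albumin-Cre, which acts in hepatocytes, and a tdTomato reporter at R26R, a genotype that the label of clone-1 does not give. IL6-iMHs were made from each of these 4 lines by culture in maturation medium. That medium held oncostatin M and a higher concentration of dexamethasone, a synthetic glucocorticoid, and its recipe lists no IL6, EGF or HGF. The liver table held 18 samples in 6 groups of 3, which were normal liver and liver at 6 h, 24 h, 3, 7 and 14 days after removal of most of the liver.

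Tyrosine breakdown is a function of the mature hepatocyte. Tat moves the amino group from tyrosine, Hpd turns the product into homogentisate, Hgd opens its ring, Gstz1 isomerises the resulting maleylacetoacetate, and Fah, the last enzyme, splits fumarylacetoacetate into fumarate and acetoacetate. Fumarylacetoacetate is toxic and builds up when Fah is missing, which a block of Hpd prevents, and for that reason mice without Fah are used to test transplanted hepatocytes. Pcbd1 and Qdpr regenerate tetrahydrobiopterin, the cofactor of aromatic amino acid hydroxylation. Tat is a classic glucocorticoid-induced gene of the liver.

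In the GENCODE M21 annotation of GRCm38, Tat lies on chromosome 8 from 109990437 to 109999803 on the plus strand, Hgd on chromosome 16 from 37580153 to 37632020 on the plus strand, and Fah on chromosome 7 from 84585159 to 84606722 on the minus strand. Hpd (123171807 to 123182727) and Qdpr (45434021 to 45450236) lie on the minus strand of chromosome 5. Pcbd1 lies on chromosome 10 from 61089331 to 61094324 and Gstz1 on chromosome 12 from 87147165 to 87164723, each on the plus strand. Exons of Gstz1 share bases with those of Pomt2 and Gm6566, and exons of Qdpr with those of Gm42413, all on the opposite strand. The protocol names no step that keeps the strand, so reads from those bases cannot be told apart, and values of Gstz1 and Qdpr carry that uncertainty.

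The 250 bases before the start of transcription were searched on both strands for letters known to be bound by liver factors, because the 7 genes were called lower together in culture. All 7 genes matched a RefSeq promoter entry (build GRCm38.p6, 32851 entries in all). Gstz1 had 2 entries, and the window of Fah lay inside the bounds of Fah given above. The C/EBP site TTGCNNAA was found in 2 of the 7 genes, Hgd (49 bases before its start) and Qdpr (77 bases), against 9.56% of all promoters. The HNF4 site CAAAGTCCA, the glucocorticoid receptor core TGTTCT and the STAT site TTCNNNGAA were found for 0 of the 7 genes, against 0.384%, 16.1% and 7.02% of all promoters. A match is a description of the letters only. The windows with a C/EBP match and that of Tat, the glucocorticoid-induced gene among the 7, are shown 5′ to 3′ with matches in capitals. They are chr8:109990186-109990435 (plus strand) for Tat, chr16:37579903-37580152 (plus) for Hgd and chr5:45450230-45450479 (minus) for Qdpr.
Tat: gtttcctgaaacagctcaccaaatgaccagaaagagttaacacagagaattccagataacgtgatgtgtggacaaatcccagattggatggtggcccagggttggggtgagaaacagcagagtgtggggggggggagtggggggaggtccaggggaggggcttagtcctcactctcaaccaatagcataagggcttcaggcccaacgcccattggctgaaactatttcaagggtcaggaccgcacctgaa
Hgd: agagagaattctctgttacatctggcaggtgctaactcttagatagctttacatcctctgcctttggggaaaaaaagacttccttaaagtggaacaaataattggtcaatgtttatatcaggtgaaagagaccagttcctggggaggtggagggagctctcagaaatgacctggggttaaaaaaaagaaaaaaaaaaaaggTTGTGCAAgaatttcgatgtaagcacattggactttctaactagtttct
Qdpr: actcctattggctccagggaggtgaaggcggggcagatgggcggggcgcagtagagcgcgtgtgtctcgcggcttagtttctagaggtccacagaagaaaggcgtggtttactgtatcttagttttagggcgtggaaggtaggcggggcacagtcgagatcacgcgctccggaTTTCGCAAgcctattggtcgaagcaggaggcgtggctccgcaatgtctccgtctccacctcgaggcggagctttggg

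Depth, as recovered from the values themselves, ran from 49.3 M to 88.9 M reads in the cell table and from 52.1 M to 79.3 M in the liver table (M, 1e06 reads). The 3 samples of a cell group were technical repeats, so every p-value of the cell table measures technical spread only and says nothing of how mice vary. Whether the 3 liver samples of a time came from separate mice was not established. Labels were checked on marker genes. Alb, the main plasma protein of hepatocytes, was at 47356 to 53749 FPKM in hepatocytes, at 1476 to 8373 in passaged IL6-iHPCs and at 49049 to 63707 in IL6-iMHs. Krt19, a marker of bile duct and progenitor cells, was at 0 to 0.0512 FPKM in hepatocytes, at 6.07 to 815 in passaged IL6-iHPCs and at 40.4 to 123 in IL6-iMHs. Cyp2e1, a cytochrome of hepatocytes around the central vein, was at 2569 to 2824 FPKM in hepatocytes and at most 17.4 in IL6-iMHs, so this hepatocyte marker was nearly absent from IL6-iMHs. In clone-1, reads on 4 Y-linked genes numbered 6575 to 9095 per sample in the IL6-iHPCs and 0 in the IL6-iMHs, so the libraries labelled IL6-iHPCs-clone-1 and IL6-iMHs-clone-1 differed in more than maturation. Such reads numbered 994 to 1550 per sample in hepatocytes, 13066 to 18444 at D3 and 9185 to 10803 at D14. They differed between hepatocytes and D3 or D14, and the part of cell origin in those comparisons was not tested. All other IL6-iHPC lines and all IL6-iMHs held 0 to 2 such reads. In each comparison of those lines with hepatocytes, the origin of the cells and the culture therefore cannot be told apart. Class averages include clone-1, and the counts of the 7 genes are also given without it. In the liver table, replicate 2 of PHX-D3 stood apart, and PHX-D3 is likewise given with and without it.

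In fresh hepatocytes all 7 genes were abundant. Hpd was highest at 1713, 1721 and 1712 FPKM, followed by Gstz1 at 505, 506 and 596, and Hgd at 450, 442 and 481. Tat was at 399, 423 and 386 FPKM, Qdpr at 388, 374 and 377, Fah at 370, 380 and 322, and Pcbd1 at 324, 305 and 290. Samples of Tat overlapped those of Qdpr, Qdpr those of Fah and Fah those of Pcbd1, while Tat stood above Fah in all samples.

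Levels of this pathway were far lower in early culture than in hepatocytes. At D3, 7 of 7 genes were called lower than in hepatocytes (limma on log2(FPKM + 1), Benjamini-Hochberg adjusted p under 0.05 and at least 2-fold), where 66.0% of all 12328 genes tested were called and 12.1% were called lower. At D14, 7 of 7 were again called lower, beside 62.9% of all genes called and 12.9% called lower. The median change of the 7 genes at D3 was -4.4 on the log2 scale, against a median of 1.14 over all genes tested. The 3 enzymes that lead from tyrosine to the opened ring fell furthest.

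Hpd was at 0.928, 0.866 and 1.01 FPKM at D3 and at 0.0824, 0.0412 and 0.0794 at D14. The fitted log2 change of Hpd from hepatocytes was -9.79 ± 0.12 (SE) at D3 and -10.65 ± 0.12 at D14 (limma, adjusted p = 4.6e-33 and 5.3e-34). At D14 Hpd rested on 3 to 6 reads per sample and its mean FPKM was 25349-fold lower than in hepatocytes (95% Poisson interval of the reads, 15329 to 45173), an interval that covers counting error only. Tat was at 0.273, 0.323 and 0.351 FPKM at D3 and 0.724, 1.02 and 0.85 at D14, which was 0.0784% and 0.215% of its hepatocyte mean. Hgd was at 3.5, 4.02 and 3.32 FPKM at D3 and 2.48, 2.8 and 2.49 at D14, below 1% of its hepatocyte mean at each time.

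Gstz1, Fah and the cofactor enzymes kept a larger part of their level. Fah was at 46.3, 43.5 and 39.9 FPKM at D3 and 38, 43.4 and 38.6 at D14, or 12.1% and 11.2% of its hepatocyte mean, with log2 changes of -3.02 ± 0.10 and -3.13 ± 0.10 (limma, adjusted p = 5.5e-22 and 2.6e-22). Gstz1 stood at 4.55% of its hepatocyte mean at D3 and 7.07% at D14. For Pcbd1 these shares were 9.44% and 14.5%, and for Qdpr 7.02% and 6.56%. No sample of D3 or D14 reached the lowest hepatocyte sample in any of the 7 genes.

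From D3 to D14, 0 of 7 genes were called, beside 10.2% of all genes. Without the 2-fold threshold 5 of 7 passed the adjusted p, with Hpd (-0.86 ± 0.12) and Hgd (-0.36 ± 0.09) lower and Tat (0.50 ± 0.08), Gstz1 (0.62 ± 0.11) and Pcbd1 (0.61 ± 0.09) higher on the log2 scale (limma, adjusted p from 1.7e-07 to 0.0011). The same 5 had an unadjusted p under 0.05. Limma voom on the recovered reads called 2 of 7, Tat at 1.44 and Hpd at -3.70. It called 2363 genes in all, against 1254 in the FPKM fit. A pseudocount of 1 FPKM compresses changes of genes this low. For Fah and Qdpr the difference was -0.11 ± 0.10 and -0.09 ± 0.07 (adjusted p = 0.34 and 0.25).

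**Figure D1:**
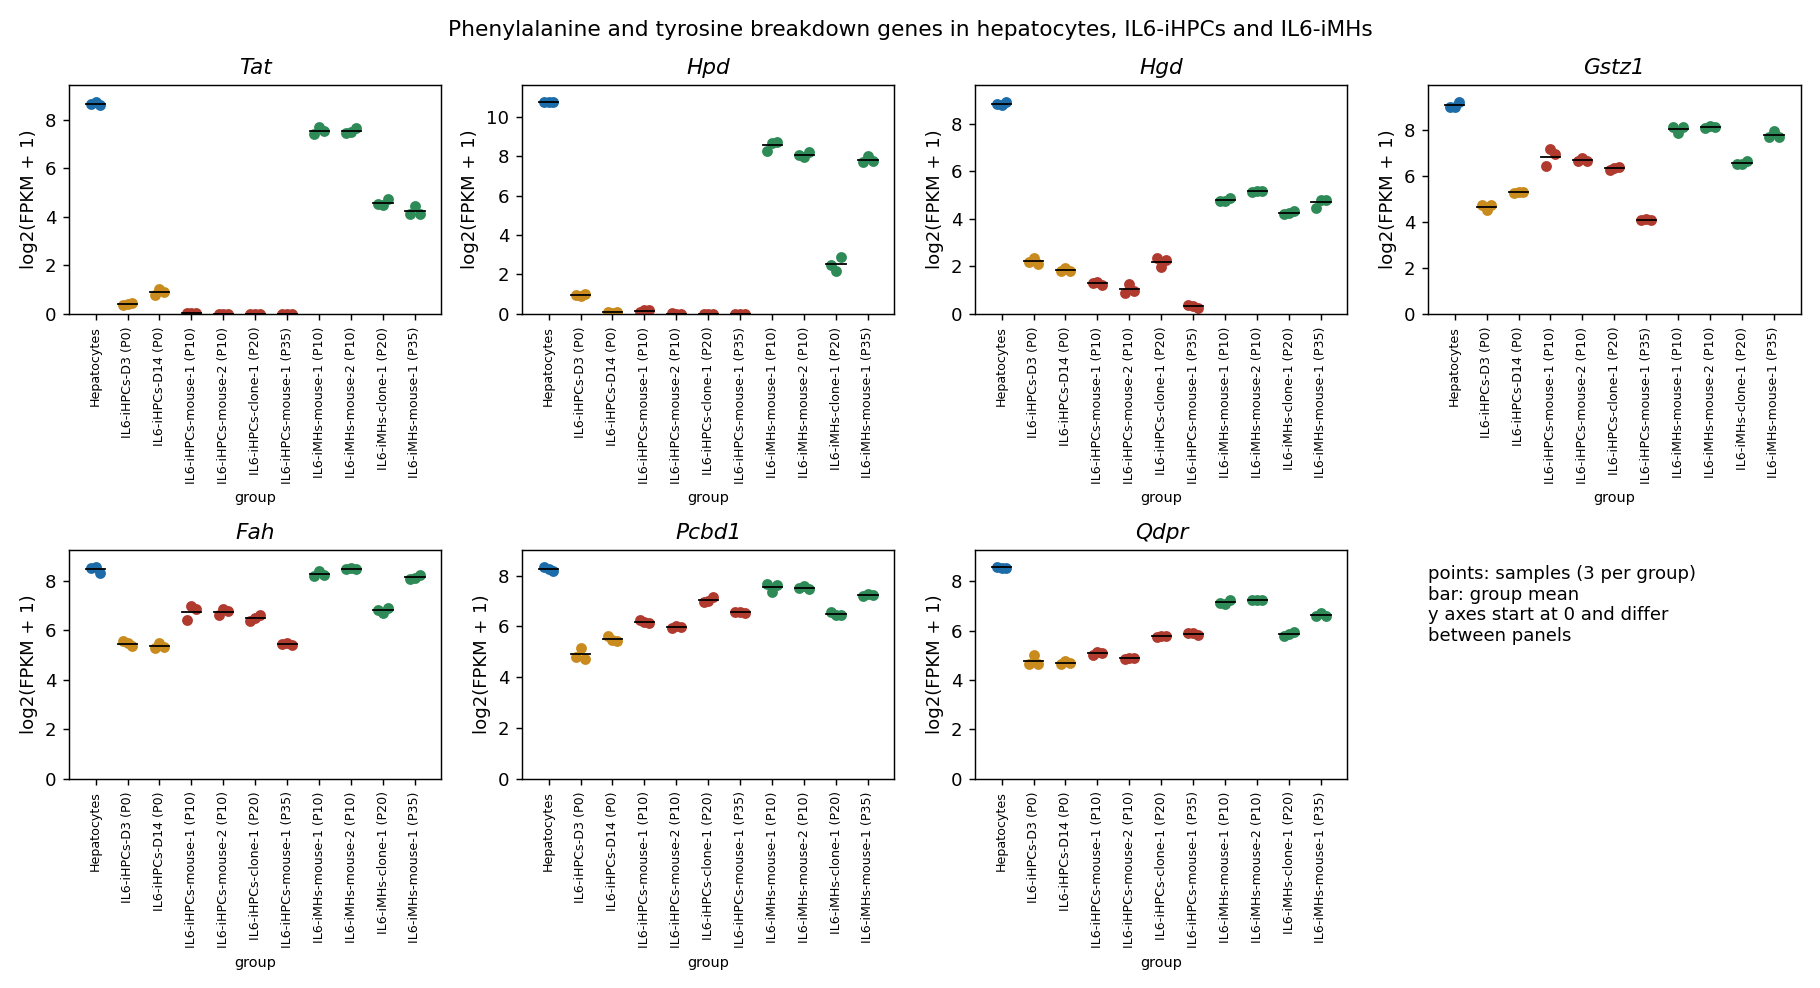
Level of each gene as log2(FPKM + 1) on the y axis in the 11 groups of cells on the x axis, with 1 point per sample (n = 3 per group) and a bar at the group mean. Tat and Hpd sat at or near 0 in all passaged IL6-iHPCs, while Fah, Pcbd1, Gstz1 and Qdpr remained measurable in every sample, and IL6-iMHs stood above the IL6-iHPCs of their line in most panels, with the exception of Pcbd1 in clone-1.

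Passaged IL6-iHPCs kept this pattern over 4 lines. Again 7 of 7 genes were called lower than in hepatocytes, beside 59.4% of all genes called and 11.3% called lower. In none of the 7 did any of the 12 samples reach the lowest hepatocyte sample. Without clone-1 the count was 7 as well. Tat was listed at 0 in all samples of mouse-1 (P35), mouse-2 (P10) and clone-1 (P20), with 0 reads, and at 0.0341, 0.0164 and 0.0322 FPKM in mouse-1 (P10), from 2 to 4 reads. Taken against the floor of 3 reads per library, Tat was at least 20378-fold lower than in hepatocytes in mouse-1 (P35), and the bound for the other two lines at 0 was 20469-fold and 21071-fold. In mouse-1 (P10) the ratio was 14616-fold lower (95% Poisson interval, 7958 to 30518).

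Hpd was listed at 0 in all samples of mouse-1 (P35), at least 49746-fold lower than in hepatocytes, and rested on 1 read in clone-1 and 2 reads in mouse-2 (P10) over 3 samples. In mouse-1 (P10) it was at 0.0893, 0.143 and 0.14 FPKM. Hgd, the next enzyme, stayed detectable in all 12 samples, from 0.2 to 4.05 FPKM with a median of 1.33. It was highest in clone-1 (4.05, 2.96 and 3.87) and lowest in mouse-1 (P35) (0.285, 0.278 and 0.2), and these lines did not overlap.

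Fah was at 40.8 to 124 FPKM in the 12 samples of passaged IL6-iHPCs, with a median of 92.8 and a log2 change of -2.12 ± 0.08 (limma, adjusted p = 8.9e-21). The 2 lines at passage 10 and clone-1 held 24.9% to 30.3% of the hepatocyte mean of Fah, and mouse-1 (P35) held 11.8%. Gstz1 showed the same order with a wider gap, from 21.8% in mouse-1 (P10) to 3.02% in mouse-1 (P35), where its 3 samples were at 15.9, 16.6 and 16 FPKM. Pcbd1 and Qdpr had another order. Pcbd1 was highest in clone-1 (123, 125 and 143 FPKM) and lowest in mouse-2 (P10) (59.5, 63.2 and 62.6), and Qdpr was higher in mouse-1 (P35) (59.4, 58.1 and 56) than in either line at passage 10 (27.6 to 34.5).

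Maturation raised the pathway unevenly. In IL6-iMHs against passaged IL6-iHPCs, 6 of 7 genes were called higher, beside 28.1% of all genes called (6.68% higher and 21.4% lower) and a median change of -0.40 over all genes. The rises were largest where the loss had been deepest, with log2 changes of 6.69 ± 0.06 for Hpd, 5.96 ± 0.04 for Tat and 3.50 ± 0.05 for Hgd (limma, adjusted p = 4.2e-36, 6.8e-38 and 1e-31). These fitted changes of Hpd and Tat depend on the pseudocount, since many IL6-iHPC samples were at 0. Gstz1 rose by 1.64 ± 0.06, Fah by 1.58 ± 0.05 and Qdpr by 1.33 ± 0.03 (adjusted p = 1.6e-21, 2.4e-22 and 6.1e-25). Pcbd1, at 0.76 ± 0.04, did not reach 2-fold. Without clone-1 all 7 were called, and Pcbd1 was at 1.20.

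Measured against hepatocytes, IL6-iMHs were called lower in 6 of 7 genes, beside 32.6% of all genes called (24.8% higher and 7.79% lower) and a median change of 0.46 over all genes. The distance was -4.13 ± 0.07 for Hgd, -4.01 ± 0.09 for Hpd and -2.69 ± 0.06 for Tat on the log2 scale (limma, adjusted p = 8.1e-29, 4.6e-26 and 2.2e-25). It was -1.85 ± 0.05 for Qdpr, -1.43 ± 0.09 for Gstz1 and -1.06 ± 0.07 for Pcbd1. Fah was closest to hepatocytes, at -0.54 ± 0.08 (adjusted p = 4.1e-07), and did not reach 2-fold. Without clone-1, 5 of 7 were called and Pcbd1, at -0.83, no longer passed. With quantile normalization 5 were called as well, beside 2916 genes in all, and Pcbd1 was at -0.76. When each sample was shifted to an equal median over all genes, Fah was called lower too, at -1.24, and Pcbd1 was called in the maturation comparison, at 1.31.

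The average hid differences between lines. Fah was at 355, 365 and 356 FPKM in IL6-iMHs-mouse-2 (P10), at 291, 337 and 302 in IL6-iMHs-mouse-1 (P10), at 273, 278 and 305 in IL6-iMHs-mouse-1 (P35), and at 113, 104 and 120 in IL6-iMHs-clone-1 (P20). The samples of mouse-2 (P10) lay within the range of hepatocytes, those of mouse-1 (P10) overlapped it, those of mouse-1 (P35) lay just below it, and those of clone-1 lay far below. Against hepatocytes the log2 change of Fah was 0.01 ± 0.10 (adjusted p = 0.95), -0.20 ± 0.10 (0.066), -0.32 ± 0.10 (0.0049) and -1.66 ± 0.10 (3.1e-15) in that order of lines (limma).

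Tat split the lines otherwise. It was at 169, 207 and 185 FPKM in IL6-iMHs-mouse-1 (P10) and 174, 177 and 199 in IL6-iMHs-mouse-2 (P10), about 46.4% and 45.5% of the hepatocyte mean. In IL6-iMHs-clone-1 (P20) it was at 22, 21.5 and 25.9 FPKM and in IL6-iMHs-mouse-1 (P35) at 16.2, 20.6 and 16.3, or 5.74% and 4.40%. The 2 lines at passage 10 overlapped each other and stood above the other two, which lay apart from each other.

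Hpd was at 310, 404 and 417 FPKM in IL6-iMHs-mouse-1 (P10), 261, 249 and 294 in mouse-2 (P10), 204, 261 and 212 in mouse-1 (P35), and 4.55, 3.5 and 6.46 in clone-1. Clone-1 thus held 0.282% of the hepatocyte mean of Hpd, and the other lines 13.1% to 22.0%. Hgd was low in IL6-iMHs of all 4 lines, from 17.2 to 34.5 FPKM over 12 samples, or 3.92% to 7.51% of the hepatocyte mean by line. Gstz1 was at 91.2 to 101 FPKM in clone-1 and 207 to 287 in the other lines. Qdpr was at 54.2 to 60.9 FPKM in clone-1 and 96.1 to 152 elsewhere, and Pcbd1 at 85.7 to 93.8 in clone-1 and 147 to 201 elsewhere.

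Counted by line, 7 of 7 genes were called higher after maturation in mouse-1 (P10) and in mouse-2 (P10). Of all genes, 25.0% and 39.9% were called there, and 9.59% and 11.2% were called higher. In mouse-1 (P35) 5 of 7 were called higher (45.3% of all genes called, 10.2% higher), without Pcbd1 (0.68 ± 0.09) and Qdpr (0.77 ± 0.07). In clone-1 3 of 7 were called higher (23.6% of all genes called, 5.86% higher), namely Tat, Hpd and Hgd. Fah was at 0.33 ± 0.10 and Pcbd1 at -0.55 ± 0.09 on the log2 scale. Against hepatocytes, IL6-iMHs were called lower in 5 of 7 genes in mouse-1 (P10) (32.6% of all genes called), in 4 of 7 in mouse-2 (P10) (25.2%), in 7 of 7 in clone-1 (45.3%) and in 6 of 7 in mouse-1 (P35) (35.2%). The shares of all genes called lower were 7.25%, 7.63%, 10.4% and 8.02% in that order. Fah was the exception in mouse-1 (P35), Fah and Pcbd1 in mouse-1 (P10), and Fah, Pcbd1 and Gstz1 in mouse-2 (P10).

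The difference of the maturation change between lines was tested itself. Clone-1 against the mean of the other lines was called for 7 of 7 genes, each with a lower maturation change. Of all genes, 24.1% were called and 13.4% were called lower. In clone-1 itself Pcbd1 fell (-0.55 ± 0.09) and Qdpr hardly moved (0.10 ± 0.07). The difference was -5.58 ± 0.13 on the log2 scale for Hpd and lay between -1.95 and -1.63 for the other 6 genes (limma, adjusted p from 3.4e-24 to 3.2e-13). With quantile normalization 6 of 7 were called, beside 2674 genes in all, and Fah was at -0.94. Because the Y-linked reads differed between the pair of clone-1 libraries, a change from maturation and a difference in the origin of the cells cannot be told apart there. Mouse-1 at P35 against the same mouse at P10 was called for 4 of 7 genes, beside 33.7% of all genes. Tat (-3.29 ± 0.12) and Qdpr (-1.31 ± 0.09) rose less at P35, while Gstz1 (2.49 ± 0.16) and Fah (1.20 ± 0.14) rose more, from the lower level of the P35 IL6-iHPCs (limma, adjusted p from 1.9e-20 to 1.4e-08). With quantile normalization 3 of 7 were called, beside 3483 genes in all, and Qdpr was at -0.88. The 2 mice at P10 differed in 0 of 7 genes, beside 14.7% of all genes. Hgd and Qdpr had an unadjusted p under 0.05 there, at 0.61 ± 0.13 and 0.29 ± 0.09.

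**Figure D2:**
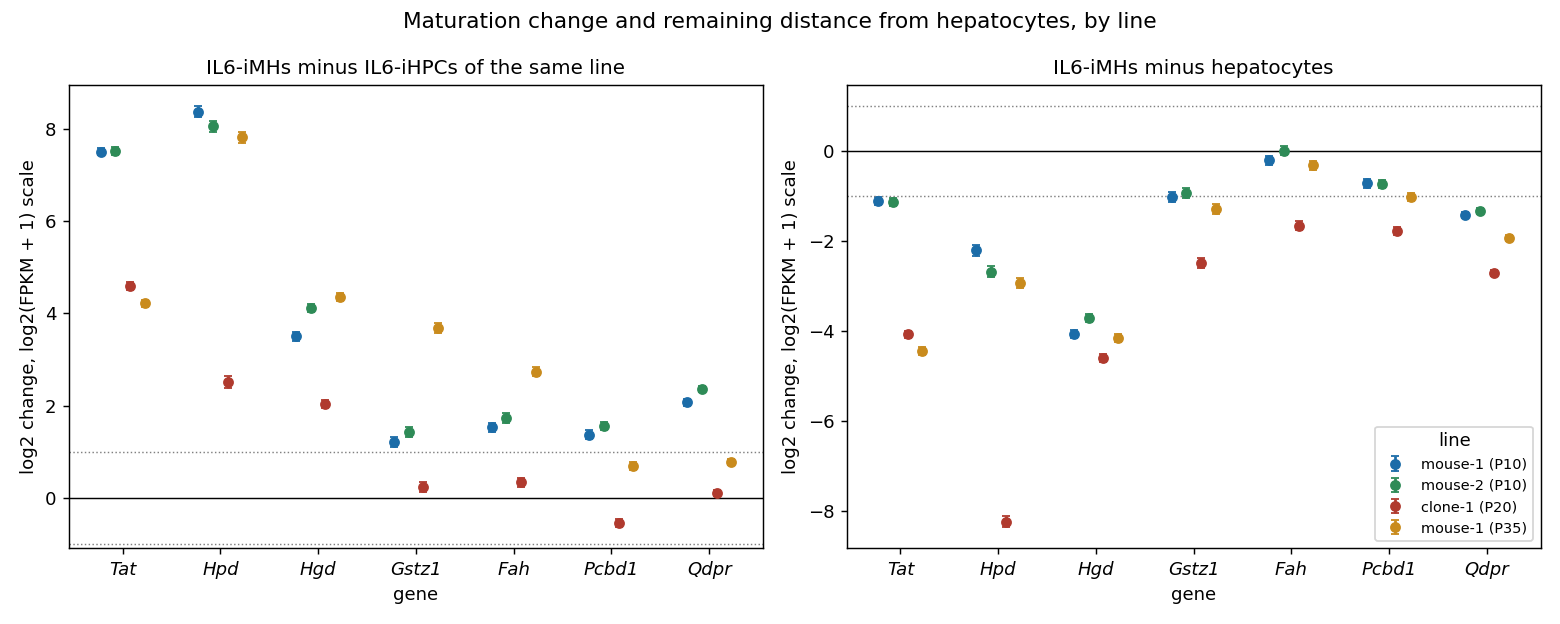
Fitted log2 change on the log2(FPKM + 1) scale on the y axis for each gene on the x axis, by line in color, with the standard error as a bar (n = 3 samples per group) and dotted lines at 2-fold. On the left IL6-iMHs are set against IL6-iHPCs of the same line, with clone-1 lowest for 6 of 7 genes and mouse-1 (P35) lowest for Tat. On the right IL6-iMHs are set against hepatocytes, with Fah closest to 0 in 4 of 4 lines and Hpd of clone-1 farthest, at -8.23.

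The balance of the pathway was described by the level of each gene relative to Fah in the same sample, on the log2(FPKM + 1) scale. In hepatocytes the enzymes before Fah stood at or above it, with group means of 0.17 for Tat, 2.26 for Hpd, 0.36 for Hgd and 0.58 for Gstz1. In passaged IL6-iHPCs the group means lay between -6.76 and -5.43 for Tat, between -6.75 and -5.43 for Hpd and between -5.72 and -4.29 for Hgd. Because Tat and Hpd were at or near 0 there, their values with the pseudocount follow the level of Fah and understate the ratio. Gstz1 stayed near Fah in 3 of the 4 lines (-0.15 to 0.09) and was at -1.33 in mouse-1 (P35). After maturation Hpd was close to Fah in the 3 lines other than clone-1 (-0.42 to 0.27) and at -4.31 in clone-1, while Hgd stayed at -3.49 to -2.59 in all 4. Hgd was thus the enzyme farthest below Fah in IL6-iMHs of both lines at passage 10, Tat was so in mouse-1 (P35) and Hpd in clone-1. In liver, the group means of Hpd relative to Fah stayed between 1.41 and 2.16 and those of Hgd between -0.59 and 0.43.

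**Figure D3:**
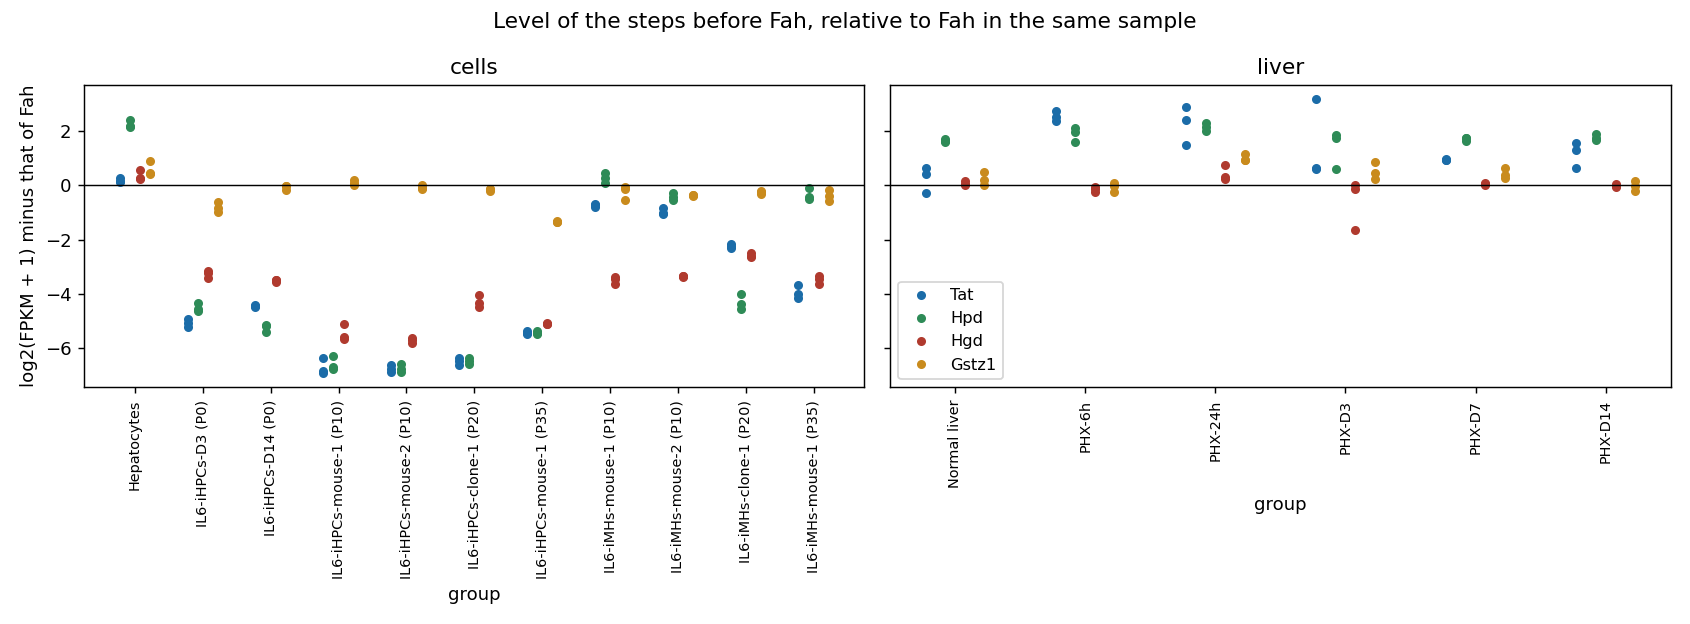
Level of Tat, Hpd, Hgd and Gstz1 relative to Fah in the same sample, as the difference of log2(FPKM + 1), on the y axis, with 1 point per sample in the groups of cells (left) and of liver (right) on the x axis. Points of Tat, Hpd and Hgd lay far below 0 in IL6-iHPCs, and in IL6-iMHs Hgd stayed below -2 in all 4 lines, while in liver nearly all points lay near or above 0, apart from Hgd in 1 sample of PHX-D3. In passaged IL6-iHPCs Tat and Hpd were at or near 0 FPKM, so their points there follow the level of Fah.

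Other genes linked to the pathway were described next. Of 21 tested, which cover tetrahydrobiopterin synthesis, aminotransferases, fumarylacetoacetase-like proteins, ketone use and transporters of aromatic amino acids, 4 were called higher and 12 lower at D3, beside 53.9% and 12.1% of all genes, with a list median of -1.71. In passaged IL6-iHPCs 3 were called higher and 11 lower, beside 48.1% and 11.3% of all genes, with a list median of -1.22. The largest falls in passaged IL6-iHPCs were Bdh1, which interconverts ketone bodies (-3.98 ± 0.07), and Gchfr, which regulates the entry step of tetrahydrobiopterin synthesis (-3.87 ± 0.10). The largest rises were Slc7a5, a transporter of large neutral amino acids (4.95 ± 0.06), and Oxct1, which lets cells burn ketone bodies (3.53 ± 0.05). With maturation Gchfr (2.82 ± 0.06) and Bdh1 (1.46 ± 0.05) rose and Slc7a5 fell by 1.81 ± 0.04. Of the list, 4 were called higher and 1 lower, beside 6.68% and 21.4% of all genes, and 9 were called without clone-1. In IL6-iMHs Oxct1 stayed above hepatocytes (4.36 ± 0.05), as did Slc7a5 (3.14 ± 0.06). Here the list had 4 genes called higher and 8 lower, beside 24.8% and 7.79% of all genes.

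Most genes for the breakdown of other amino acids were lower in culture as well. Of 41 genes tested, 36 were called lower at D3 and 38 in passaged IL6-iHPCs, beside 12.1% and 11.3% of all genes. In passaged IL6-iHPCs the list's median was -3.71 against 0.93 over all genes. Bhmt and Gnmt of methionine metabolism fell furthest in passaged IL6-iHPCs, at -10.78 ± 0.17 for Bhmt and -9.21 ± 0.10 for Gnmt on the log2 scale. Gldc of glycine cleavage was the 1 gene called higher (1.14 ± 0.07). With maturation 28 of 41 were called higher and 0 lower, beside 6.68% and 21.4% of all genes (median 1.48 against -0.40). Bhmt (5.49 ± 0.11) and Gnmt (4.99 ± 0.06) led the rises. In IL6-iMHs against hepatocytes 26 were called lower and 2 higher, beside 7.79% and 24.8% of all genes. Agxt, which detoxifies glyoxylate, was at -7.59 ± 0.09 and Dmgdh of choline breakdown at -7.09 ± 0.07.

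Of 14 liver factors known to act on these genes, 9 were called higher and 2 lower at D3, beside 53.9% and 12.1% of all genes, with a list median of 1.80 against 1.14. In passaged IL6-iHPCs 4 were called higher and 2 lower, beside 48.1% and 11.3% of all genes, with a list median of 0.40 against 0.93. Among them were Cebpa (-3.58 ± 0.06) and Foxa3 (-2.16 ± 0.04) lower and Cebpd (3.68 ± 0.07) and Prox1 (2.56 ± 0.10) higher. Cebpa, which drives metabolic genes of hepatocytes, was at 249 to 304 FPKM in hepatocytes, 10.4 to 46.9 in passaged IL6-iHPCs and 46.4 to 88.0 in IL6-iMHs, and it rose with maturation (1.53 ± 0.04), as did Foxa3 (1.83 ± 0.03). Hnf4a (0.46 ± 0.04) did not reach 2-fold in passaged IL6-iHPCs. Nr3c1, the glucocorticoid receptor, was at 2.71 to 3.37 FPKM in hepatocytes and 10.6 to 17.2 in passaged IL6-iHPCs (1.95 ± 0.09), where Tat was at or near 0. A link of these factors to the 7 genes was not tested.

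Genes known to be induced by glucocorticoids were set beside Tat, since each medium held dexamethasone. Of 13 tested, 8 were called higher and 2 lower in passaged IL6-iHPCs, beside 48.1% and 11.3% of all genes, with a list median of 1.83 against 0.93. The higher genes were led by Mt2, a metallothionein (6.93 ± 0.11), and Sgk1, a kinase (6.01 ± 0.05), while Pck1 (-9.25 ± 0.07) and G6pc (-4.95 ± 0.05) of glucose production were lower. With maturation 3 were called higher and 0 lower, beside 6.68% and 21.4% of all genes, and without clone-1 the list had 6 called. Igfbp1 (2.96 ± 0.04) and G6pc (1.99 ± 0.03) had the largest rises. In IL6-iMHs against hepatocytes Sgk1 (6.79 ± 0.05) and Mt2 (6.77 ± 0.11) were higher and Pck1 was at -8.01 ± 0.07. Pck1 and G6pc are also genes of the mature hepatocyte, and the part of glucocorticoids in the rises and falls of this list was not tested.

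Markers of other cell types moved with the groups. The sum of 7 bile duct and progenitor markers was 4.09 to 4.4 FPKM in hepatocytes, 2983 to 11091 in passaged IL6-iHPCs and 278 to 1566 in IL6-iMHs, where Krt7, at 0 in all hepatocytes, is one of the list. The sum of 7 stellate cell and fibroblast markers was 0.646 to 0.954 FPKM in hepatocytes, 24.8 to 26.0 at D14, 3.43 to 19.4 in passaged IL6-iHPCs and at most 0.611 in IL6-iMHs. The sum of 6 lymphocyte and neutrophil markers was 86.5 to 92.4 FPKM in IL6-iHPCs-mouse-1 (P35) and 28.0 to 36.6 in IL6-iHPCs-clone-1 (P20), against 8.86 to 10.5 in hepatocytes. Of the 3 such markers tested, 1 was called higher and 2 lower in passaged IL6-iHPCs against hepatocytes, beside 48.1% and 11.3% of all genes. In these lists Cd3e was at 0 in mouse-1 (P35), and Col1a2 and Pdgfrb were at 0 in passaged IL6-iHPCs of the 3 lines other than mouse-1 (P35). The Kupffer cell marker Clec4f was at 2.9 to 3.46 FPKM in hepatocytes and at 0 in every cultured sample, while the sum of 7 Kupffer cell and macrophage markers reached 40.7 FPKM in IL6-iMHs-mouse-1 (P35). Cd5l and Vsig4 of that list were at 0 in IL6-iMHs-mouse-1 (P35) as well. Of the 4 such markers tested, 1 was called higher and 2 lower in IL6-iMHs against hepatocytes, beside 24.8% and 7.79% of all genes. The sum of 6 endothelial markers was 16.2 to 18.6 FPKM in hepatocytes and at most 0.281 in passaged cells and IL6-iMHs, and that of 4 red blood cell markers 16.8 to 25.7 and at most 0.0441. The part of other cell types in the values of the 7 genes was not tested. Of 9 hepatocyte markers tested, 7 were called lower and 1 higher in passaged IL6-iHPCs, beside 11.3% and 48.1% of all genes. Fewer hepatocyte-like cells and less RNA per cell cannot be told apart in such bulk samples.

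Across the 33 cell samples, the genes most like Fah were Cyp4f14 (r = 0.978), Apoc3 (0.975) and Acaa2 (0.974), by Pearson's r of log2(FPKM + 1) over 12328 genes. Gstz1, the step before Fah, ranked 12 (r = 0.958). Among the genes most like Tat were Arg1 (0.975) and Uox (0.967), with Hpd at rank 9 (0.948) and Fah at rank 224 (0.852). These are descriptions over samples that share groups, with 3 technical repeats each.

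After PHX, Tat rose at 6 h and Fah and Qdpr fell at 24 h. The reference was normal liver and the samples hold no sham operation, so loss of liver and the operation itself cannot be told apart. At 6 h Tat was at 1945, 1795 and 2148 FPKM, against 574, 297 and 599 in normal liver, so the groups did not overlap and the mean was 1962 ± 177 (SD, n = 3) against 490 ± 168. Tat was the 1 gene of 7 called at 6 h, at 2.06 ± 0.38 on the log2 scale (limma, adjusted p = 0.00036), beside 16.3% of all 11114 genes called and a median of -0.28 over all genes. The order among liver groups was 6 h highest, apart from all other times, while 14 days, 24 h, 3 days, 7 days and normal liver each overlapped the next.

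At 6 h Pcbd1, Qdpr and Gstz1 had an adjusted p under 0.05 without reaching 2-fold. Pcbd1 was at 180, 143 and 131 FPKM against 264, 285 and 319 in normal liver (-0.94 ± 0.22, adjusted p = 0.0026), and Qdpr at 232, 197 and 193 against 347, 380 and 430 (-0.89 ± 0.25, adjusted p = 0.0082). Gstz1 was at 333, 296 and 343 FPKM against 423, 504 and 451 (-0.50 ± 0.17, limma, adjusted p = 0.019). None of the 3 genes overlapped normal liver. Leaving out replicate 1 of normal liver or of PHX-6h took Pcbd1 past 2-fold, to -1.0 and -1.07, and 2 genes were then called. Fah (-0.23 ± 0.23), Hgd (-0.46 ± 0.50) and Hpd (0.02 ± 0.43) had adjusted p of 0.43 to 0.97 (limma).

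At 24 h Fah was at 205, 166 and 186 FPKM against 368, 361 and 451 in normal liver, and Qdpr at 167, 124 and 136. All samples of both genes lay below normal liver. They were the 2 of 7 genes called at this time, with Fah at -1.08 ± 0.23 and Qdpr at -1.44 ± 0.25 on the log2 scale (limma, adjusted p = 0.0029 and 0.00077), beside 7.90% of all genes called. Fah was at 47.2% of its mean in normal liver, and its call rested on the 2-fold threshold. Without replicate 3 of normal liver it was at -0.97 and without replicate 2 of PHX-24h at -1.0, and 1 gene was then called. Tat was at 577, 1243 and 1002 FPKM (0.94 ± 0.38, adjusted p = 0.066), and without replicate 1 of PHX-24h it was called at 1.25, which made 3.

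At 3 days the samples disagreed. Hgd was at 285, 44.0 and 319 FPKM, Hpd at 1142, 214 and 1062, and Fah at 316, 139 and 315, with replicate 2 lowest in each. Replicate 2 was also lowest in Gstz1, Pcbd1 and Qdpr, and highest in Tat, at 1283 FPKM against 500 and 487. With all samples 2 of 7 genes were called, Qdpr at -1.27 ± 0.25 (limma, adjusted p = 0.0024) and Hgd at -1.37 ± 0.50 (adjusted p = 0.05, just under the threshold), beside 5.82% of all genes called. Without replicate 2, 0 of 7 were called, beside 462 genes called in all, against 647 with it. Qdpr was then at -0.86 ± 0.15 (limma, adjusted p = 0.0011) and Hgd at -0.45 ± 0.18 (adjusted p = 0.08). Pcbd1 and Qdpr kept an adjusted p under 0.05. Without replicate 3, 4 were called, with Hpd at -1.31 and Pcbd1 at -1.10 in addition. The sum of hepatocyte markers was 36171 FPKM in replicate 2, against 47583 and 69562 in the other samples and 54948 to 59791 in normal liver, while Hnf4a, at 171 FPKM against 189 and 195, stood above the 87.2 to 164 of normal liver. The sum of endothelial markers was 59.3 FPKM, against 90.2 and 75.7, with 104 to 112 in normal liver. In replicate 2 Cyp2e1 was at 398 FPKM, against 2801 and 1923 in the other samples and 2390 to 2702 in normal liver, and the sum of stellate and fibroblast markers was 206 FPKM, against 65.6 and 78.0. Sums of red blood cell markers (301 against 65.3 and 17.7) and of Kupffer cell markers (359 against 204 and 135) were highest there as well, and their part in the values of the 7 genes was not tested.

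At 7 and 14 days 0 of 7 genes were called by limma on FPKM, beside 8.84% and 2.98% of all genes. Voom on the recovered reads also called 0 of 7, beside 1556 and 756 genes in all. At 7 days 0 of 7 had an unadjusted p under 0.05. Fah was at 307, 329 and 330 FPKM at 7 days, below every sample of normal liver, and at 378, 420 and 417 at 14 days, where it overlapped normal liver. At 14 days Tat alone had an unadjusted p under 0.05 (0.97 ± 0.38, adjusted p = 0.091), and its samples of 941, 662 and 1242 FPKM lay above all of normal liver. At 7 days 7 of 7 Kupffer cell and macrophage markers tested were called higher, with a summed level of 732 to 1055 FPKM against 121 to 206 in normal liver. So were 5 of 5 lymphocyte and neutrophil markers, beside 7.81% of all genes called higher. Their part in the values at 7 days was not tested.

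**Figure D4:**
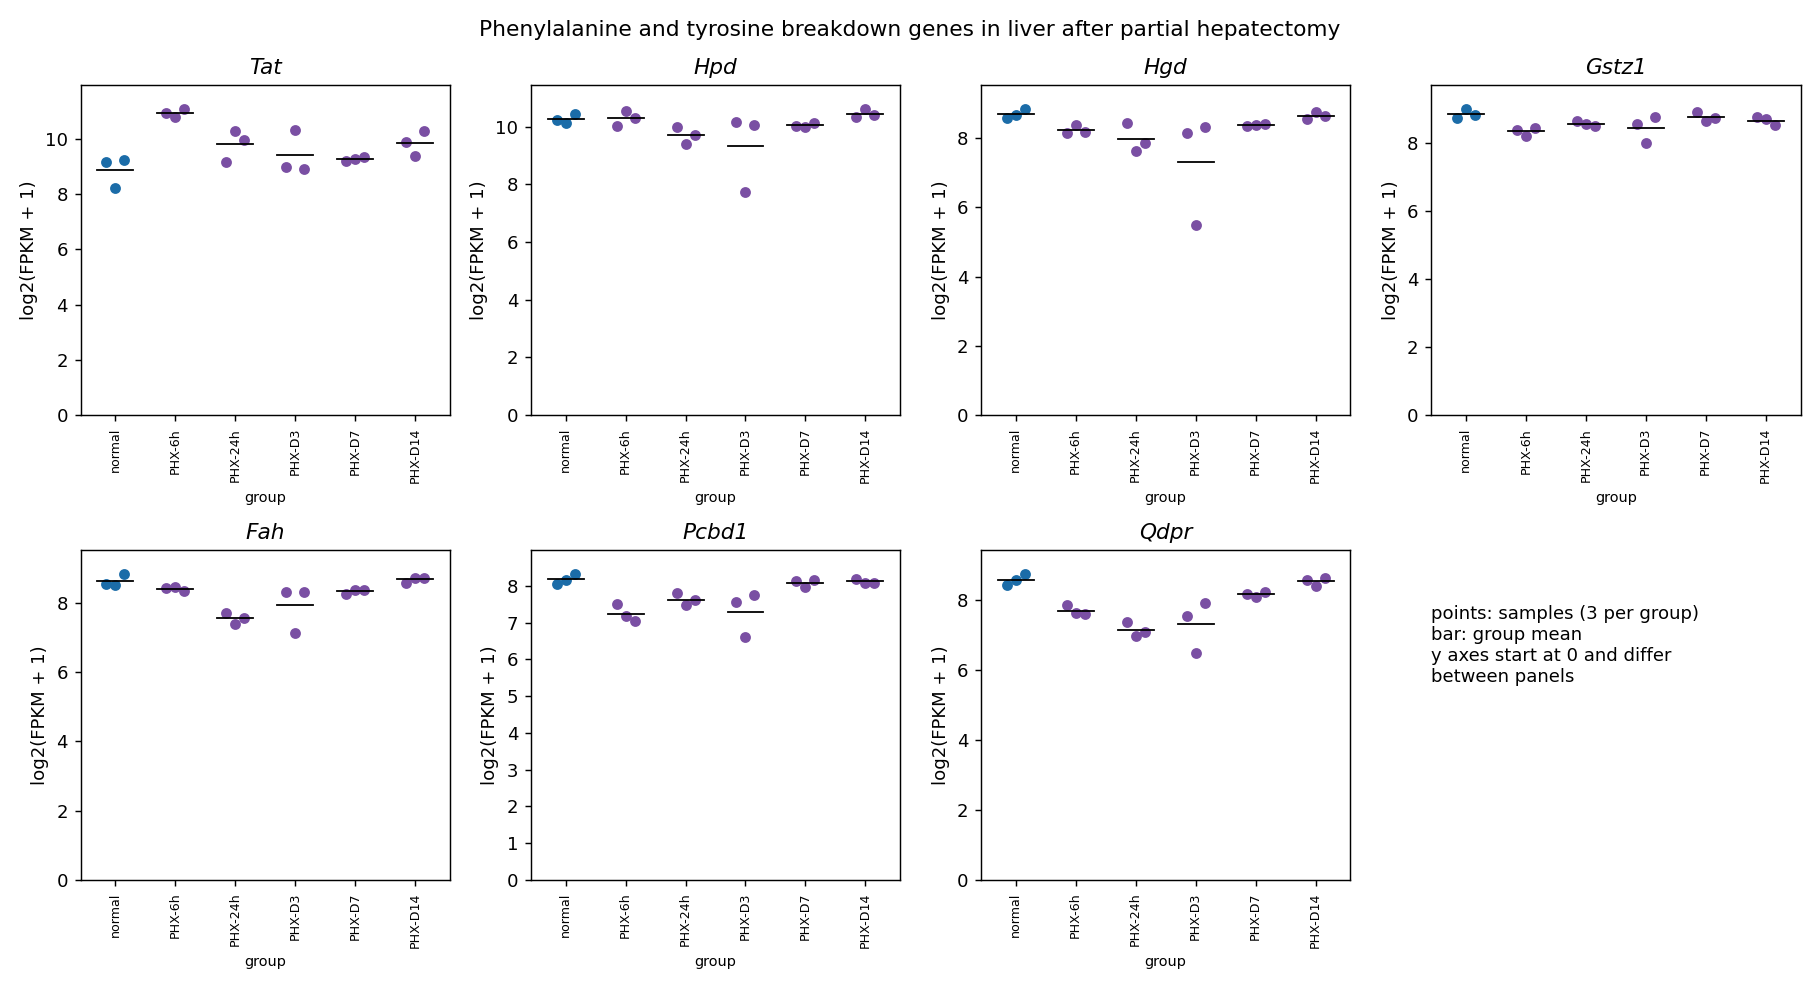
Level of each gene as log2(FPKM + 1) on the y axis in normal liver and at 6 h, 24 h, 3, 7 and 14 days after PHX on the x axis, with 1 point per sample (n = 3 per group) and a bar at the group mean. Tat was highest at 6 h, Fah and Qdpr were lower at 24 h, and replicate 2 of PHX-D3 lay apart from the other samples of its group in all 7 panels.

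The other lists were counted in liver too. Of 41 genes for the breakdown of other amino acids, 5 were called higher and 8 lower at 6 h (4.78% and 11.5% of all genes), and 2 higher and 13 lower at 24 h (3.74% and 4.16%). At 7 and at 14 days 0 were called higher and 1 lower, beside 7.81% and 1.03% of all genes at 7 days and 0.981% and 2.00% at 14 days. Aass of lysine breakdown (3.34 ± 0.15) and Mat1a of methionine metabolism (2.15 ± 0.26) rose most at 6 h, and Amt of glycine cleavage (-2.17 ± 0.26) and Bcat2 of branched-chain amino acids (-2.15 ± 0.17) fell most. At 24 h Afmid of tryptophan breakdown (-3.01 ± 0.69) and Gnmt (-2.0 ± 0.29) were lowest. Of 21 other genes of the pathway, 3 were called higher and 2 lower at 6 h, with Fh1, the fumarase that takes up the fumarate made by Fah (2.01 ± 0.13), and Got1, an aminotransferase (1.90 ± 0.22), higher and Fahd1 (-2.81 ± 0.35) and Bdh1 (-1.16 ± 0.13) lower.

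Of 13 glucocorticoid-induced genes other than Tat, 8 were called higher and 2 lower at 6 h, beside 4.78% and 11.5% of all genes, with a list median of 1.42 against -0.28. Mt2 (9.62 ± 0.47) and Pdk4, an inhibitor of pyruvate use (6.52 ± 1.18), rose most, and G6pc (-1.66 ± 0.56) and Tsc22d3 (-1.27 ± 0.43) were lower. Mt2 stayed higher at every later time, at 6.36 ± 0.47 at 14 days. Of 14 factors 2 were called higher and 3 lower at 6 h. Cebpd (2.91 ± 0.36) and Cebpb (1.91 ± 0.31) rose and Cebpa (-2.37 ± 0.35) fell, with Hnf4a at 0.51 ± 0.18 and Nr3c1 at -0.87 ± 0.18. Cebpa was still lower at 24 h (-1.08 ± 0.35), and a link of Cebpa to the 7 genes was not tested.

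Across the 18 liver samples, Fah was most like Gstm7 (r = 0.965), Cyp2f2 (0.963) and Aldh2 (0.962) over 11114 genes, and Qdpr ranked 31 (0.917). Among the genes most like Tat were Bcl2l1 (0.917) and Gcnt2 (0.913). The r between Tat and Fah was -0.217 in liver, over 18 samples, and 0.852 in cells, over 33 samples, which share no sample and were made in separate tables.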

How the data were processed

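Messenger RNA was purified with polyT, per the labels, and sequenced in paired-end mode on an Illumina platform, per the study's methods. The authors deposited 1 value per gene and sample, taken as FPKM, and the submitters' processing notes name TopHat 1.4.1, Cufflinks 1.3.0 and mm10. The annotation is not given in the sources used here. All 33 cell and 18 liver samples were used. A further 9 samples of cultures at day 7 were not used, since none of the 7 genes is listed in the part of their table held here. Symbols listed more than 1 time were averaged.

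A gene was kept if 3 or more samples reached 1 FPKM (12328 and 11114 genes). With limma 3.58.1 (R 4.3.3), a trended prior was used and each table had its own fit, which held all of its groups, on log2(FPKM + 1). Benjamini-Hochberg adjustment covered every gene tested, and a gene was called at an adjusted p under 0.05 and at least 2-fold. The class comparisons average 4 lines. Nearly all deposited FPKM values are multiples of what 1 read is worth for that gene and sample, which gave depth and reads (whole within 0.1 read for 99.9% of cell genes and 100.0% of liver genes tested). Whether that unit is a read or a pair was not established. Floors of 3 reads and 95% intervals cover counting error only. Other work used Python 3.11.15 with numpy 2.4.6, pandas 2.3.3, scipy 1.17.1 and matplotlib 3.10.9. The steps were tested on simulated data.

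The 7 genes and the lists were chosen with earlier results of these data known. Lists are described by counts and medians, without a test. Named are the 7 genes, the largest called rises and falls of each list (at most 2 each), Hnf4a, Cebpa and Nr3c1, markers that check the labels and genes among the 3 most like Fah and Tat. Cyp2e1 in PHX-D3, the Y-linked reads and the markers named as being at 0 were singled out after their values were seen. Some genes that this rule or the lists would name, and 1 motif, are not reported here. The alternatives were other pseudocounts, filters, scalings and thresholds, a replicate block, voom on recovered reads, and leaving out samples or clone-1. Apart from PHX-D3 without replicate 2, fits without clone-1 or without 1 sample are given without the share of all genes called.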

Additional observations from a re-analysis of the deposited data

Results flagged for a closer look

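The maturation change from IL6-iHPCs to IL6-iMHs differed between lines in tests of the difference itself. In clone-1 (P20), against the mean of the other lines, it differed by -5.58 for Hpd, -1.95 for Hgd, -1.87 for Gstz1, -1.83 for Tat, -1.75 for Pcbd1, -1.66 for Fah and -1.63 for Qdpr on the log2 scale. The Y-linked reads of the pair of clone-1 libraries differed, and their part in this was not tested. In mouse-1 at P35, against the same mouse at P10, the change differed by -3.29 for Tat and -1.31 for Qdpr and by 2.49 for Gstz1 and 1.20 for Fah. The repeats behind these tests are technical, and each line stands for 1 culture. Groups of 3 samples are too small for the test of outlying samples, so replicate 2 of PHX-D3 was not tested in that way.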

How the results depend on the processing

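No paired analysis decides a result, since same-numbered samples did not deviate together on average (mean r of -0.015 in cells and -0.03 in liver). Single pairs ran from -0.54 to 0.57 in cells and from -0.3 to 0.39 in liver. With the replicate number as a replicate block, counts of called genes were as reported, except PHX-D3 with 1 gene in place of 2.

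D3, D14 and passaged IL6-iHPCs against hepatocytes kept 7 called genes, apart from 6 in passaged IL6-iHPCs at a 4-fold threshold. For D14 against D3 the count went from 0 to 2 with a pseudocount of 0.1 or voom, to 3 at 1.5-fold and to 5 without a fold threshold. At 4-fold, 3 genes were called in maturation and 3 in IL6-iMHs against hepatocytes. PHX-6h gave 4 genes without a fold threshold and 3 at 1.5-fold, and PHX-24h gave 0 at 4-fold. PHX-D3 gave 1 with a pseudocount of 0.1, without the filter and with voom, 0 with quantile normalization, with only the groups compared and at 4-fold, and 4 without a fold threshold and at 1.5-fold. Leaving out 1 sample gave 1 to 2 genes at PHX-6h, 1 to 3 at PHX-24h and 0 to 4 at PHX-D3.

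The direction turned for 26 single values, none of them called in the main result. At D14 against D3 these were Qdpr (0.06 with quantile normalization and with an equal median, -0.14 to 0.02 leaving out 1 sample) and Fah (0.04 with an equal median). For the maturation change of mouse-1 at P35 against P10 it was Hpd (0.42 with a pseudocount of 0.1). For mouse-2 against mouse-1 they were Hpd (0.56 with a pseudocount of 0.1), Tat (-0.09 with quantile normalization, -0.06 to 0.09 leaving out 1 sample) and Fah (-0.02 with quantile normalization). At PHX-6h they were Hpd (-0.09 with quantile normalization, -0.11 to 0.15 leaving out 1 sample) and Fah (0.07 with an equal median). At PHX-D14, with quantile normalization, they were Hgd (0.00) and Qdpr (0.04), and with an equal median Hgd (0.04), Qdpr (0.04) and Pcbd1 (0.03). Leaving out 1 sample at PHX-D14 gave -0.10 to 0.02 for Hgd, -0.12 to 0.03 for Qdpr, -0.12 to 0.01 for Pcbd1 and -0.01 to 0.15 for Fah. Of 2058 single values, 1968 kept direction and side of the threshold, 34 newly passed it, 30 lost it and 26 turned. The cause was not tested.

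Voom called more of all genes than the FPKM fit, with 2363 against 1254 for D14 against D3, 5436 against 3459 for maturation, 6468 against 4020 for IL6-iMHs against hepatocytes, and 3021 against 1810, 1389 against 878, 1082 against 647, 1556 against 982 and 756 against 331 for PHX at 6 h, 24 h, 3, 7 and 14 days. With an equal median, the median change of all genes at D3 was -0.32 in place of 1.14, so the size of a change depends on the scaling. The depth limits Tat and Hpd in passaged IL6-iHPCs, which rest on 0 to 10 reads per sample. The technical repeats limit what the cell p-values cover, and 3 samples per time limit the power after PHX.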
